A study of Homo sapiens with 6 samples.

Results

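Amino acid transporters are membrane proteins that carry amino acids into and out of the cell, and 10 of their genes are described here in MDA-MB-231 cells: SLC7A11, SLC7A5, SLC3A2, SLC1A5, SLC38A2, SLC38A1, SLC7A1, SLC1A4, SLC1A3 and SLC43A1. They were picked by gene symbol from the 17631 genes with an expression value, and all 10 had a row and enough signal to be tested. MDA-MB-231 is an established line of human triple-negative breast cancer, a class that lacks the oestrogen, progesterone and HER2 receptors used in therapy. RNA sequencing compared 3 libraries of cells given vehicle, which the labels do not name further, with 3 libraries of cells given 30 µM PDBAG1 for 24 h. PDBAG1 is a synthetic peptide taken from the enzyme GPD1 and joined to a cell-penetrating sequence, and the study follows its effect on C1QBP and mitochondrial metabolism. Both groups are the same line with no genetic change, and no source used here says whether the 3 libraries of a group came from separate cultures, so p values measure only the spread between these libraries.

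Growing tumour cells take up amino acids through a few transport systems. SLC7A5 (LAT1) and SLC7A11 (xCT) are light chains that reach the plasma membrane only when paired with the heavy chain SLC3A2 (4F2hc, CD98). LAT1 exchanges glutamine for leucine and other large neutral amino acids, and xCT exchanges glutamate for cystine, the source of cysteine for glutathione. SLC1A5 (ASCT2), SLC38A1 (SNAT1) and SLC38A2 (SNAT2) are sodium-coupled carriers of glutamine and other small neutral amino acids. When amino acids run short, the kinase GCN2 acts on eIF2 and the transcription factor ATF4 is made, and ATF4 is known to switch on several transporter genes.

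The libraries carried the profile of the line in part. The mesenchymal marker VIM stood at 4270 ± 87.5 TPM (transcript abundance per length, scaled to one total per library, SD, n = 3) with vehicle, the oestrogen receptor gene ESR1 at 2.26 ± 0.240 TPM and the progesterone receptor gene PGR at 0.0267 ± 0.0306 TPM. From the lists of expected markers, SPARC was nearly absent at 0.677 ± 0.0757 TPM and the epithelial keratin KRT8 was abundant at 578 ± 6.21 TPM, which goes against both lists. The HER2 gene ERBB2, also on the list expected low, was at 24.7 ± 0.633 TPM with vehicle. The epithelial genes EPCAM and CDH1 of that list were at 5.14 ± 1.06 and 0.567 ± 0.158 TPM. Among 8 markers of other cell types, 4 were expressed enough to be tested and 3 rose with PDBAG1 (CD68, PECAM1 and PDGFRB), beside 21.7% of all genes tested that were called higher. PDGFRB passed in 6 of 14 alternatives, and 2 of the 4 rose under quantile normalization and with length and GC trends removed. The summed level of the 8 was 260.4 to 273 TPM with vehicle and 321 to 344 TPM with PDBAG1, nearly all of it from CD68, and 9.35 to 9.75 and 14.9 to 16.2 TPM without CD68. The endothelial marker VWF and the adipocyte marker ADIPOQ were both under 1 TPM. Their part in the results was not tested. TPM values sum to the same total in each library and hold no record of depth, so the counting error behind a value is unknown.

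Of the 10 transporters, 1 changed at a limma adjusted p under 0.05 with PDBAG1: SLC38A1, a glutamine carrier, was higher by 0.18 on the log2 scale (SE 0.06, adjusted p = 0.0296 in limma). Over all 12582 genes tested the same threshold called 37.6% of genes, 21.7% higher and 15.9% lower. The share among the transporters was 10.0%, and its place against all genes depended on scaling. None of the 10 changed by the study's limit of 1.5-fold, which 3.34% of all genes tested passed together with the p threshold, 2.86% higher and 0.477% lower. In 2 of the 10 the groups did not overlap, as in 47.4% of all genes tested. Their median log2 fold change was -0.02, beside 0.03 for all genes tested.

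The limma intervals show how large a change the spread between these libraries allows, and they hold only for these libraries. On the log2(TPM + 1) scale the 95% limma interval of every one of the 10 lay inside a 1.5-fold change in either direction, as it did for 89.9% of all genes tested. The pseudocount of 1 understates changes of low genes, and with a pseudocount of 0.1 the interval of the low gene SLC1A3 reached down to a fold of 0.624 while those of the other 9 stayed inside. These intervals are not adjusted for the number of genes, and none was computed for the other scalings or with libraries left out. There the log2 fold change of SLC1A3 reached -0.41 (SE 0.11) under quantile normalization and -0.43 (SE 0.11) without PDBAG1 replicate 3. Calls depended on scaling. Under median-of-ratios scaling, which rescales each library by its typical gene, 1 transporter was higher and 3 were lower (SLC7A11, SLC3A2 and SLC1A3). When trends with transcript length and GC content were removed, a setting chosen after the data were seen, 1 was higher and 5 were lower. Those 5 included SLC1A5 and SLC7A1, which were not near the threshold in the main fit (adjusted p = 0.216 and 0.937 in limma). Thus 4 of 10 transporters were called beside 41.3% of all genes tested in the former setting, and 6 of 10 beside 45.0% in the latter. Those settings also turned the balance of calls over all genes, from 57.8% higher to 47.2% and 43.9%.

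**Figure D1:**
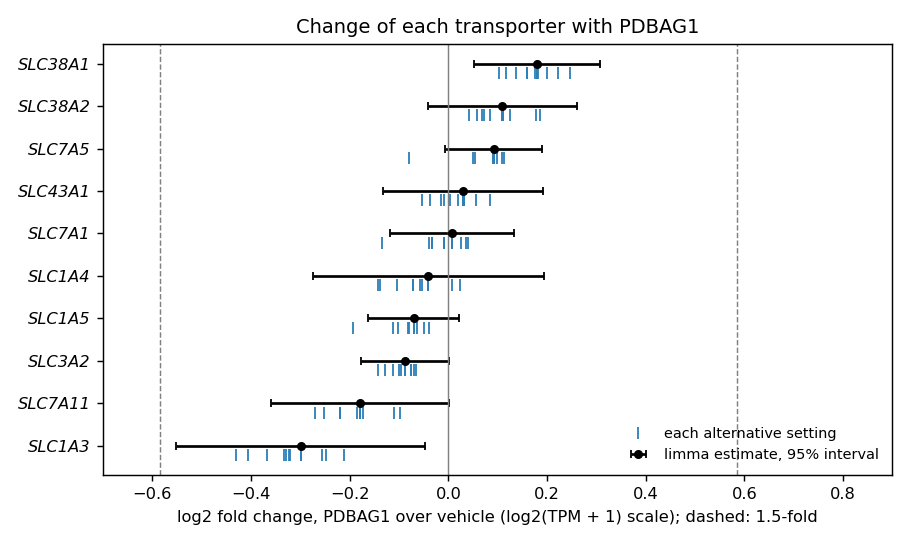
Log2 fold change of each transporter, PDBAG1 over vehicle, on the log2(TPM + 1) scale. Black points are limma estimates with 95% intervals, blue ticks are the estimates under the 14 alternative settings, and dashed lines mark a 1.5-fold change; all 10 intervals lie between the dashed lines, and only those of SLC38A1 and SLC1A3 do not cross 0.

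The levels of the 10 genes spanned nearly the same range in both groups. TPM is a level per transcript length, so genes can be ranked within a library. With vehicle the order was SLC38A2, SLC1A5, SLC3A2, SLC38A1, SLC7A5, SLC7A1, SLC7A11, SLC43A1, SLC1A3 and SLC1A4, from a mean of 199 TPM down to 2.50 TPM, and only the first 2 neighbours overlapped between libraries. With PDBAG1 SLC38A1 stood above SLC3A2 in the order of means and all other places were kept. In the PDBAG1 libraries the ranges of SLC1A5 and SLC38A1 overlapped, as did those of SLC38A1 and SLC3A2. The 10 genes summed to 945, 864 and 887 TPM in the vehicle libraries and 882, 902 and 972 TPM in the PDBAG1 libraries. The groups overlapped, and the ratio of the means was 1.02 (two-sided exact permutation test, p = 0.6, where 3 libraries against 3 can give no p below 0.1). Without PDBAG1 replicate 3 it was 0.992. As a mean share of that sum, SLC38A2 gave 22.1% with vehicle and 23.4% with PDBAG1, SLC38A1 17.1% and 18.9%, SLC1A5 21.6% and 20.1%, and SLC3A2 18.7% and 17.3%. These 4 genes thus carried most of the summed transcript level in both groups, and SLC7A11 carried 2.95% and 2.54%.

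**Figure D2:**
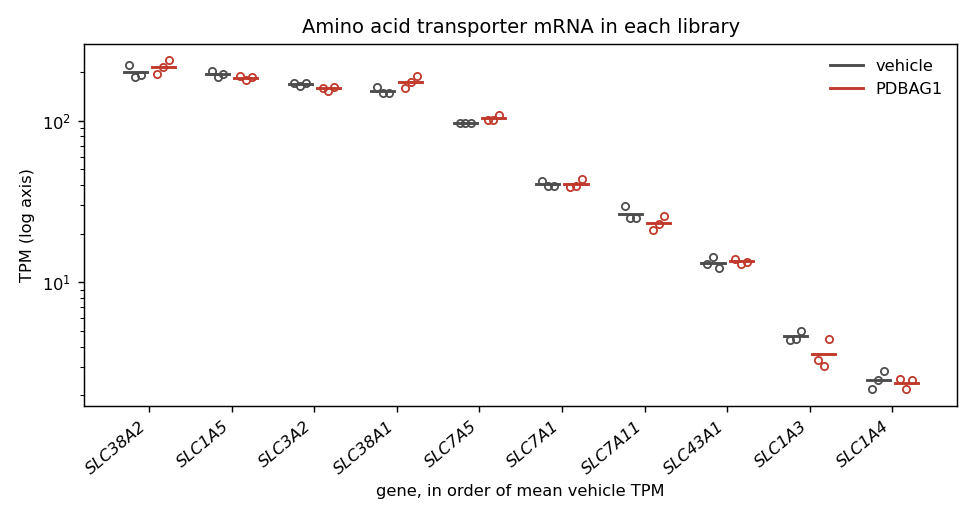
TPM of the 10 transporters in every library, on a log axis, with genes in order of their mean vehicle level. Open circles are libraries and short lines are means of 3; the 2 groups lie close together at each gene, from about 199 TPM for SLC38A2 to 2.50 TPM for SLC1A4 with vehicle.

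ATF4 acts through a short element. Its core letters were searched near the transcription start sites of the 10 transporter genes and of the amino acid response genes described further on. RefSeq windows on GRCh38.p14 that run from 250 bases before to 50 bases after a start were present for 9 of the 10 genes, 18 windows in all. The letters TGATGNAA, on either strand, were found in 6 of the 9 genes, 1 window each, and in 3.62% of all 35116 windows and 4.46% of all 27305 genes. Each matching stretch is shown 5′ to 3′ on the gene's strand, with the match in capitals.
SLC38A1 (chr12:46266502-46266531, minus strand): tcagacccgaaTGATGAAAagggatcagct
SLC7A1 (chr13:29595663-29595692, minus strand): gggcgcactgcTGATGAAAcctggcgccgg
SLC1A5 (chr19:46784893-46784922, minus strand): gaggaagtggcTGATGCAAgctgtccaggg
SLC1A3 (chr5:36596357-36596386, plus strand): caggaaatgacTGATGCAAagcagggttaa
SLC1A4 (chr2:64989381-64989410, plus strand): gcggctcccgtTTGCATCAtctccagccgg
SLC3A2 (chr11:62881725-62881748, plus strand): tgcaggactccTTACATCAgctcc
In SLC38A1, SLC7A1, SLC1A5 and SLC1A3 the letters read forwards, and in SLC1A4 and SLC3A2 they read as the reverse complement. The matches lay 4 bases upstream of a start in SLC38A1, 7 in SLC1A4, 97 in SLC1A5 and 220 in SLC1A3, and 7 bases downstream of one in SLC7A1 and 37 in SLC3A2. Of these 6 genes SLC38A1 was the only one past the threshold, although SLC3A2 and SLC1A3 also passed as lower under median-of-ratios scaling, and SLC3A2, SLC1A5, SLC7A1 and SLC1A3 with length and GC trends removed. A match is a description of the letters and not a measured binding site, and several of these genes have more than one start. The antioxidant-type letters TGACNNNGC were found in 5 of the 9 genes (16.1% of all genes), the hypoxia-type letters ACGTG in 6 (24.9%), and CACGTG, which overlaps the latter, in 3 (8.77%).

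The light chain SLC7A11 (chromosome 4, 138164097 to 138242349, GRCh38, GENCODE v44) imports cystine. It was at 29.8, 25.0 and 25.0 TPM with vehicle and 21.1, 23.1 and 25.9 TPM with PDBAG1. The groups overlapped through PDBAG1 replicate 3, and the log2 fold change was -0.18 (SE 0.08, adjusted p = 0.110 in limma). The estimate was negative in all 14 alternatives, from -0.10 to -0.27, and passed the threshold in 4 of them, among them all 3 other scalings.

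SLC7A5 (chromosome 16, 87830023 to 87869507), which imports leucine, was at 96.8, 96.9 and 96.8 TPM with vehicle and 101, 100.4 and 109 TPM with PDBAG1. All 3 PDBAG1 libraries lay above all 3 vehicle libraries, a pattern that 27.2% of all genes tested showed, but the difference was small, at 0.09 on the log2 scale (adjusted p = 0.131 in limma). With length and GC trends removed it turned to -0.08.

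The heavy chain SLC3A2 (chromosome 11, 62856004 to 62888880) was at 171, 163 and 171 TPM with vehicle and 160, 154 and 161 TPM with PDBAG1. Here all PDBAG1 libraries lay below all vehicle libraries, as in 20.2% of genes tested. The log2 fold change was -0.09 (adjusted p = 0.111 in limma), and it stayed negative in all 14 alternatives and passed the threshold in 2.

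Because SLC7A5 and SLC3A2 leaned in opposite directions in the deposited TPM, their ratio within each library moved more than either gene. A single scaling factor per library does not change this ratio, but quantile normalization and removal of length and GC trends can. SLC7A5 per SLC3A2 was 0.566, 0.596 and 0.566 with vehicle and 0.629, 0.654 and 0.675 with PDBAG1. The groups did not overlap, and the mean ratio was 1.13 times higher with PDBAG1 (two-sided exact permutation test, p = 0.1, the smallest possible, adjusted p = 0.5 over the 5 sums and ratios compared). With each library left out it ranged from 1.11 to 1.15. The canonical transcripts of SLC3A2 and SLC7A5 are 1885 and 4556 bases long with GC contents of 57.8% and 61.2%. With length and GC trends removed their log2 fold changes were -0.14 and -0.08, so they no longer leaned in opposite directions. The ratio was not computed in that setting. SLC7A11 per SLC3A2 was 0.174, 0.154 and 0.146 with vehicle and 0.132, 0.151 and 0.161 with PDBAG1, and the groups overlapped (two-sided exact permutation test, p = 0.5, adjusted p = 0.75).

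**Figure D3:**
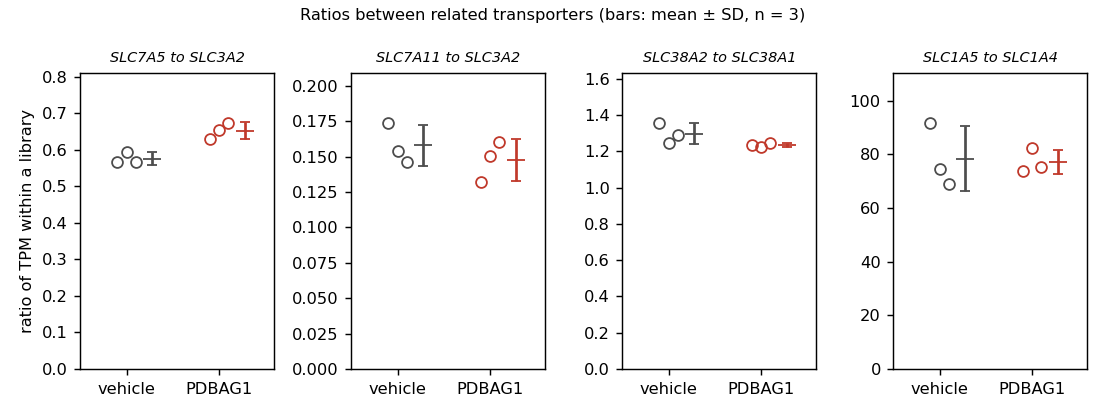
Ratio of TPM between pairs of related transporters in every library, each panel with its own axis from 0. Circles are libraries and bars are the mean ± SD of 3; only the ratio of SLC7A5 to SLC3A2 separates the groups, at 0.566 to 0.596 with vehicle and 0.629 to 0.675 with PDBAG1.

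Among the neutral amino acid carriers, SLC1A5 (chromosome 19, 46774883 to 46788594), the main glutamine exchanger of many tumour cells, was at 202, 185 and 194 TPM with vehicle and 187, 179 and 187 TPM with PDBAG1. The groups overlapped, at -0.07 on the log2 scale (adjusted p = 0.216 in limma). It was negative in all 14 alternatives and passed the threshold in 1, at -0.19 once length and GC trends were taken out. Its relative SLC1A4 (ASCT1; chromosome 2, 64988477 to 65023865), a carrier of serine, alanine and cysteine, was the lowest of the 10, at 2.20, 2.49 and 2.82 TPM with vehicle and 2.54, 2.18 and 2.48 TPM with PDBAG1. These values overlapped fully (log2 fold change -0.04, adjusted p = 0.795 in limma). The ratio of SLC1A5 to SLC1A4 was 91.9, 74.5 and 68.9 with vehicle and 73.8, 82.3 and 75.4 with PDBAG1 (two-sided exact permutation test, p = 0.9, adjusted p = 0.9).

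SLC38A1 (chromosome 12, 46183063 to 46270017), the transporter that passed the threshold, was at 162, 149 and 149 TPM with vehicle and 158, 174 and 190 TPM with PDBAG1. The groups still overlapped, since PDBAG1 replicate 1 lay below vehicle replicate 1. The rise amounted to 1.13-fold, with a 95% interval of 1.04 to 1.24. The estimate was positive in all 14 alternatives, from 0.10 to 0.25, and lost the threshold in 6, among them the fits without vehicle replicate 2 or 3 and without PDBAG1 replicate 2 or 3, where adjusted p was 0.0963, 0.103, 0.0707 and 0.112 in limma. The highest library of each group, vehicle replicate 1 and PDBAG1 replicate 3, also had the highest median-of-ratios factor of its group, 1.02 and 1.05. Under that scaling the log2 fold change of SLC38A1 was 0.14 (adjusted p = 0.0424 in limma).

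SLC38A2 (chromosome 12, 46358188 to 46372773), whose transcript is known to rise when amino acids are withdrawn, had the highest mean of the 10 but lay below SLC1A5 in 2 of the 3 vehicle libraries, at 221, 185 and 192 TPM with vehicle and 195, 214 and 236 TPM with PDBAG1. The groups overlapped, and the log2 fold change was 0.11 (adjusted p = 0.240 in limma). It passed the threshold without vehicle replicate 1 (0.19) and without PDBAG1 replicate 1 (0.18). SLC38A2 per SLC38A1 was 1.36, 1.24 and 1.29 with vehicle and 1.23, 1.23 and 1.24 with PDBAG1. PDBAG1 replicate 3 lay just above vehicle replicate 2 (two-sided exact permutation test, p = 0.2, adjusted p = 0.5).

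The genes whose log2(TPM + 1) followed SLC38A1, the transporter with the largest moderated t, most closely over the 6 libraries were EFR3A, CLMP and COX20, with Pearson's r of 0.9996, 0.997 and 0.997. This is a description over 6 libraries of 2 treatments, which share their treatment and scaling. Their own log2 fold changes were 0.20, 0.12 and 0.09.

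The remaining carriers move charged or large amino acids. SLC7A1 (CAT1; chromosome 13, 29509414 to 29595688), the main arginine and lysine importer, was at 42.3, 39.4 and 39.4 TPM with vehicle and 39.0, 39.5 and 43.4 TPM with PDBAG1. It gave the estimate nearest 0 (log2 fold change 0.01, 95% interval -0.12 to 0.13, adjusted p = 0.937 in limma), and the sign turned in 6 of the 14 alternatives, in 1 of them past the threshold (-0.13 with length and GC trends removed, adjusted p = 0.0114 in limma). SLC43A1 (LAT3; chromosome 11, 57484534 to 57515780), a uniporter of large neutral amino acids, was at 12.98, 14.3 and 12.3 TPM with vehicle and 14.0, 12.97 and 13.5 TPM with PDBAG1. The groups overlapped (log2 fold change 0.03, adjusted p = 0.786 in limma). SLC1A3 (EAAT1; chromosome 5, 36596588 to 36688334), an importer of glutamate and aspartate, was at 4.41, 4.46 and 5.04 TPM with vehicle and 3.31, 3.05 and 4.48 TPM with PDBAG1. It gave the largest estimate of the 10, -0.30 on the log2 scale (SE 0.12, adjusted p = 0.0590 in limma), and PDBAG1 replicate 3 overlapped the vehicle range. Without that library it was -0.43 (adjusted p = 0.00691 in limma), and it passed the threshold in 5 of the 14 alternatives.

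A wider list held 41 other amino acid transporters, of which 34 had a row and 17 were expressed enough to be tested. Of these, 6 rose and 2 fell, 47.1% of the list beside 37.6% of all genes tested, and the median log2 fold change was 0.16. Under quantile normalization 4 rose and 3 fell with a median of 0.09, and with length and GC trends removed 5 rose and 3 fell with a median of 0.05. The count of 8 dropped to 4 without vehicle replicate 2, to 5 without vehicle replicate 3 and to 4 without PDBAG1 replicate 3. The largest rise on the log2(TPM + 1) scale was that of SLC6A6, the taurine transporter, from 51.7, 46.1 and 45.4 TPM to 64.0, 67.4 and 74.8 TPM. Its log2 fold change was 0.52 (adjusted p = 4.04e-05 in limma), and it passed the threshold in all 14 alternatives. SLC7A2, a cationic amino acid transporter related to SLC7A1, fell from 5.65, 5.09 and 4.55 TPM to 3.21, 3.50 and 3.86 TPM (log2 fold change -0.43, adjusted p = 0.00477 in limma), also in all 14. For both genes the groups did not overlap.

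Changes of other low genes of the list were smaller on the log2(TPM + 1) scale. SLC38A4 fell from 5.73 ± 0.250 to 4.52 ± 0.186 TPM (SD, n = 3 each), and SLC7A7 rose from 1.44 ± 0.0200 to 2.09 ± 0.0985 TPM (SD, n = 3 each), the latter past the threshold in 9 of 14 alternatives. SLC1A1, a glutamate transporter, rose from 0.887 ± 0.0814 to 1.43 ± 0.218 TPM (SD, n = 3 each), but it entered the test only through its PDBAG1 level. SLC7A7 and SLC1A1 did not pass under quantile normalization. On the log2(TPM + 1) scale no gene of this list passed 1.5-fold, although the plain ratio of mean TPM was 1.61 for SLC1A1. That plain ratio was 1.45 for SLC7A7 and 1.44 for SLC6A6.

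The amino acid response list, 30 genes known to be induced through ATF4 or GCN2, gave 27 tested genes with 10 higher and 5 lower, 55.6% of the list beside 37.6% of all genes. Under median-of-ratios scaling 9 were higher and 8 lower. Its members moved in different ways. DDIT4, an inhibitor of mTORC1 that hypoxia also induces, rose from 182, 205 and 179 TPM to 528, 514 and 476 TPM (log2 fold change 1.42, adjusted p = 4.18e-10 in limma). VLDLR, a lipoprotein receptor, rose from 3.91, 3.76 and 3.76 TPM to 9.31, 9.38 and 9.40 TPM (log2 fold change 1.11), and the transcription factor CEBPB from 90.7 ± 5.61 to 161 ± 10.7 TPM (SD, n = 3 each). In contrast, the proline synthesis enzyme PYCR1, the transcription factor ATF5 and the serine synthesis enzyme PSAT1 fell, by 0.23, 0.20 and 0.20 on the log2 scale. PYCR1 passed the threshold in 14 of 14 alternatives and ATF5 and PSAT1 in 11 each, and the groups of PSAT1 overlapped.

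Genes of this list outside the naming rule were added after their values were seen. ATF4 itself was at 501, 531 and 523 TPM with vehicle and 571, 570.1 and 560.3 TPM with PDBAG1, or 0.13 on the log2 scale (adjusted p = 0.0103 in limma). Its groups did not overlap, and it passed in 12 of 14 alternatives. CHAC1, which degrades glutathione, rose from 26.0 ± 1.85 to 35.2 ± 0.337 TPM and the pseudokinase TRIB3 from 39.3 ± 2.30 to 52.7 ± 2.05 TPM (SD, n = 3 each), in all 14 alternatives. ASNS, asparagine synthetase and a standard marker of amino acid shortage, was at 101, 89.9 and 103 TPM with vehicle and 89.3, 87.1 and 96.0 TPM with PDBAG1 (log2 fold change -0.11, adjusted p = 0.151 in limma). The transcription factor ATF3 rose from 4.27 ± 0.889 to 7.57 ± 0.716 TPM (SD, n = 3 each). Its log2 fold change was 0.71 (adjusted p = 0.000333 in limma). DDIT3 was at -0.04 on the log2 scale (adjusted p = 0.561 in limma). The letters TGATGNAA were found in 5 of the 23 response genes with a start-site window, ASNS, ATF3, CEBPG, CHAC1 and JDP2.

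Transcription factors known to act at transporter genes gave 6 higher and 3 lower of 15 tested, 60.0% of the list beside 37.6% of all genes tested. Under median-of-ratios scaling 4 were higher and 3 lower, where 41.3% of all genes tested were called. Quantile normalization and removal of length and GC trends each left 6 higher and 3 lower. Beside CEBPB, the rises were led by BACH1, a repressor of antioxidant genes, from 26.1 ± 0.702 to 40.1 ± 2.26 TPM (SD, n = 3 each). EPAS1 (HIF-2α) rose from 35.2 ± 0.946 to 52.7 ± 3.36 TPM (SD, n = 3 each). E2F1 and KEAP1 fell, by 0.50 and 0.16 on the log2 scale. Of the 7 genes of the eIF2 kinase list, which includes GCN2 (EIF2AK4), none rose and 1 fell, EIF2S1, which encodes the alpha subunit of eIF2 (log2 fold change -0.25). The 1 call was 14.3% of the list, beside 37.6% of all genes tested. Under each of the 3 other scalings 3 of the 7 fell. Of all genes tested, 21.8% fell under median-of-ratios scaling, 21.8% under quantile normalization and 25.3% with length and GC trends removed.

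In the amino acid sensing machinery of mTORC1, 12 genes rose and 3 fell of 31 tested, 48.4% of the list beside 37.6% of all genes tested, with a median log2 fold change of 0.09. The falls numbered 5 under median-of-ratios scaling and quantile normalization and 6 with length and GC trends removed, and the median was 0.03 under quantile normalization. SAMTOR, a sensor of S-adenosylmethionine listed under its older symbol BMT2, rose from 4.81 ± 0.228 to 8.60 ± 0.514 TPM (log2 fold change 0.72, adjusted p = 2.04e-05 in limma). The GTPase RRAGD rose from 14.4 ± 0.476 to 20.1 ± 0.888 TPM and the leucine sensor SESN2 from 6.67 ± 0.451 to 9.36 ± 0.755 TPM (SD, n = 3 each). MIOS, SEH1L and SEC13, subunits of the GATOR2 complex, fell, by 0.37, 0.25 and 0.11 on the log2 scale, whereas the other GATOR2 genes of the list, WDR24 and WDR59, named after their values were seen, were at 0.16 and -0.003 and did not pass. The fall of SEC13 held in 7 of 14 alternatives and those of MIOS and SEH1L in all.

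The enzymes that use the imported amino acids were mixed. Of 13 tested genes of glutamine, glutamate and glutathione metabolism, 3 rose and 3 fell. GGT1, which breaks down extracellular glutathione, rose from 6.63 ± 0.371 to 8.67 ± 0.304 TPM, glutamine synthetase (GLUL) from 25.8 ± 1.37 to 32.1 ± 1.36 TPM (SD, n = 3 each), and GLUD1 by a log2 fold change of 0.13. GCLM, the modifier subunit of the enzyme that starts glutathione synthesis, fell from 36.3 ± 2.65 to 28.3 ± 1.90 TPM (SD, n = 3 each). The aspartate aminotransferases GOT1 and GOT2 fell by 0.20 and 0.12 on the log2 scale, GOT2 past the threshold in 8 of 14 alternatives. Among 20 cytosolic tRNA synthetases, which load amino acids onto tRNA, 3 rose and 5 fell, with CARS1 at a log2 fold change of 0.22 and GARS1 at 0.12, and with FARSB, KARS1 and FARSA at -0.38, -0.22 and -0.17. The synthetases gave 2 higher and 7 lower under median-of-ratios scaling, 5 and 5 under quantile normalization, and 3 and 9 with length and GC trends removed. The rises of GLUD1 and GARS1 did not hold under median-of-ratios scaling, and they passed the threshold in 8 and 6 of 14 alternatives. Thus 46.2% of the first list and 8 of the 20 synthetases were called, beside 37.6% of all genes tested.

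**Figure D4:**
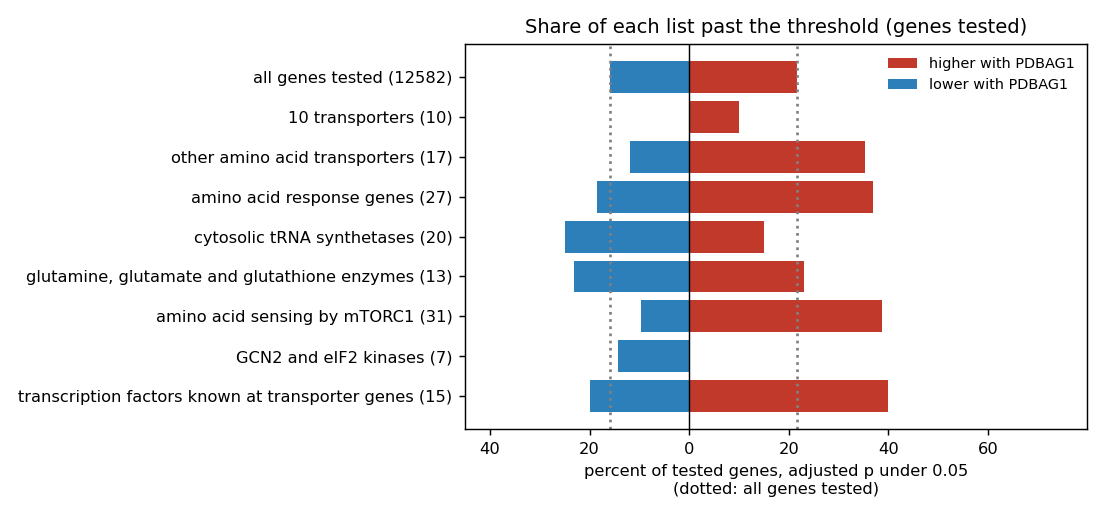
Percent of tested genes with a limma adjusted p under 0.05 in each list, higher with PDBAG1 to the right and lower to the left, with the number tested in brackets. Dotted lines mark 21.7% higher and 15.9% lower for all genes tested; the 10 transporters reach 10.0% higher and 0% lower.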

How the data were processed

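RNA from vehicle and PDBAG1 treated MDA-MB-231 cells was sequenced by the authors on the BGISEQ500 platform. Their methods name HISAT2, GRCh38.p13 and FPKM, whereas the submitters' processing notes name HISAT2 2.0.4, Bowtie2 2.2.5, RSEM 1.2.12 and GRCh38.p12. The authors deposited TPM, given to 2 decimals, and the step that made them is not given in the sources used here. The depth per library is unknown.

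Genes with at least 1 TPM in 3 or more libraries were tested on log2(TPM + 1) in R 4.3.3 with limma 3.58.1 (variance trend, Benjamini-Hochberg over 12582 genes), after tests on simulated data. Calls were made at an adjusted p under 0.05, with the study's 1.5-fold limit given beside them. Sums and ratios were compared by exact permutation. The members and lists were chosen with earlier results of these data known. Named genes were the 10 transporters, up to 3 rises and 3 falls per list, and the 3 genes most like the transporter of largest t. Some genes that the rule names are not reported here. Positions are those of GENCODE v44, matched by Ensembl identifier (17212 of 17631 genes). Alternatives were another pseudocount, filters, scalings, no variance trend, a replicate block, fold limits and each library left out. Removal of length and GC trends, for the 12433 genes with a canonical transcript, was added after seeing the data.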

Additional observations from a re-analysis of the deposited data

How the results depend on the processing

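The count of 1 transporter past the threshold, of 10, became 0 with no expression filter, 0 without the variance trend and 2 with a TPM of at least 1 in all libraries. Over all genes tested, 4133 of 17630, 4191 of 12582 and 4734 of 12105 were called in those settings. The transporter count was 3 under quantile normalization, 4 under median-of-ratios scaling and 6 with length and GC trends removed, the last a choice made with the data in view. Those settings called 40.9%, 41.3% and 45.0% of all genes tested, beside 37.6% in the main fit. The transporter count was 0 at a fold limit of 1.5 or of 2, where 420 and 80 of all 4736 genes remained. It ranged from 0 to 2 with each library left out in turn. Over the same left-out libraries the count of other amino acid transporters ranged from 4 to 8, all genes from 3532 to 4649, and the pathway lists together from 38 to 50. Of the 140 single transporter estimates under alternatives, 6 lost the threshold, 14 gained it and 13 changed sign, 1 of these past the threshold (SLC7A1). The largest was a 1.35-fold fall, for SLC1A3 without PDBAG1 replicate 3 (log2 fold change -0.430).

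The sign turned for SLC7A1, to -0.0339 under median-of-ratios scaling, -0.0340 under quantile normalization, -0.134 with length and GC trends removed, and to between -0.0400 and 0.0404 with each library left out. It turned for SLC43A1, to -0.00956, -0.0367 and -0.0534 in the same 3 settings and to between -0.0149 and 0.0845 with each library left out. For SLC7A5 it turned to -0.0800 with length and GC trends removed, and for SLC1A4 the estimates ran from -0.104 to 0.0233 with each library left out. The ratio of summed TPM ranged from 0.992 to 1.05 and that of SLC1A5 to SLC1A4 from 0.927 to 1.08. The cause of these shifts was not tested.

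When replicate number entered as a block, 1 transporter was called, as without it, and SLC38A1 kept its call. The numbers share no stated origin, and the deviations of same-numbered libraries correlated at -0.21, 0.01 and -0.08. No count model was run, since TPM are not counts. The spread of 3 libraries, not a known depth, sets the precision.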
